A study of Arabidopsis thaliana with 4 samples.

Results

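The 48 Arabidopsis loci of the cytosolic large ribosomal subunit families L3 to L18a (19 families) were taken by their locus identifiers from a table of 8346 loci with at least 1 read; 47 of the 48 had a read and AT3G48960, an L13 gene, had 0 reads in every library. The RefSeq product or synonym of 48 of 48 contains the word ribosomal, which does not check the family or the subunit. The table comes from TAIL-seq, which sequences the 3′ ends of RNA and records for each read the length of the A tract and any nucleotides added after it. There was 1 library each from the urt1-1 mutant (a SALK insertion line), the xrn4-3 mutant (a SALK insertion line), the urt1-1 xrn4-3 double mutant and wild type (WT) of ecotype Col0. For all 4 genotypes RNA came from seedlings 2 weeks old, grown on soil with 16 h light and 8 h darkness a day. The sources do not say how many plants went into a library. The data address how the loss of the uridylating enzyme, of the exonuclease, or of both alters mRNA tails.

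Ribosomal protein mRNAs are among the most abundant mRNAs of growing plant tissue, and each protein is usually encoded by several similar genes. Cytoplasmic mRNAs lose their poly(A) tail by deadenylation, after which the cap is removed and XRN4, the cytoplasmic 5′-to-3′ exoribonuclease, degrades the body. URT1 is a terminal uridylyltransferase that adds U to short, oligoadenylated tails, and XRN4 acts downstream on decapped mRNA.

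The libraries held 43391 reads for urt1, 9797 for xrn4, 26300 for urt1 xrn4 and 10304 for WT, all with A tracts of 4 to 30 nt, and all libraries were read on the same 2 lanes. The 48 loci had 1376 reads in urt1 (45 loci read), 234 in xrn4 (33 loci), 718 in urt1 xrn4 (43 loci) and 168 in WT (29 loci), which is 2496 of 89792 reads. At least 10 reads were available for 30 loci in urt1, 8 in xrn4, 22 in urt1 xrn4 and 5 in WT, so values per locus are thin in xrn4 and WT. There was no replicate of any genotype, so no difference has a replicate check and no p-value is given. Intervals are at 95%: exact (Clopper-Pearson) for a share, exact (binomial) for a ratio of read shares and approximate (Newcombe) for a difference of shares. They cover counting error only, and reads carry no molecular identifier, so a 3′ end read repeatedly makes them too narrow.

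The tails themselves show what was measured. The most frequent 3′ end of AT2G34480, an L18a gene, is written out for each library because this locus gave the most U-extended reads in xrn4; a stands for the A tract, and capitals mark added nucleotides, where T stands for U:
AT2G34480 in urt1: aaaaaaaaaaaaaaaaaa
AT2G34480 in xrn4: aaaaaaaaaaaaaaTT
AT2G34480 in urt1 xrn4: aaaaaaaaaaaaa
AT2G34480 in WT: aaaaaaaaaaaaaaaaaaaT
These ends had 10 reads in urt1 (18 A), 5 reads in xrn4 (14 A with 2 U, all in 1 lane), 4 reads in urt1 xrn4 (13 A) and 3 reads in WT (19 A with 1 U, also in 1 lane). The most frequent end carried U in xrn4 and WT, and no U in urt1 or urt1 xrn4. For SAC52 (AT1G14320, an L10 gene), the locus with the most reads over the 4 libraries, the most frequent end was unextended in each of them. It was shown by these tracts:
SAC52 in urt1: aaaaaaaaaaaaaaa
SAC52 in xrn4: aaaaaaaaaaaaaaaaaaa
SAC52 in urt1 xrn4: aaaaa
SAC52 in WT: aaaaaaaaaaaaaaaaa
They had 30 reads in urt1 (15 A), 8 in xrn4 (19 A), 15 in urt1 xrn4 (5 A) and 5 in WT (17 A). The extended SAC52 end with the most reads in urt1 xrn4 had 11 A and 2 U and was read 4 times:
SAC52 in urt1 xrn4, extended: aaaaaaaaaaaTT

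Uridylation of the large subunit mRNAs was lowest in urt1 and highest in xrn4. A tail counts as uridylated when the table lists it as a U extension. Uridylated tails were 62 of 1376 in urt1 (4.51%, 3.47 to 5.74), 86 of 234 in xrn4 (36.8%, 30.6 to 43.3), 72 of 718 in urt1 xrn4 (10.03%, 7.93 to 12.5) and 40 of 168 in WT (23.8%, 17.6 to 30.98). The urt1 share was 19.3 percentage points below WT (interval of the difference −26.4 to −13.4), a 5.28-fold lower share. The xrn4 share was 12.9 points above WT (3.79 to 21.5), but 4.37 points when only extensions of U alone were counted and 6.33 points with identical reads counted once. The double mutant stood 13.8 points below WT (difference −21.0 to −7.49) and 26.7 points below xrn4 (−33.4 to −20.3), and 5.52 points above urt1 (3.18 to 8.13). The 5 intervals exclude 0, and residual uridylation was seen in both libraries that lack URT1.

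The direction was the same in each lane. In lane 1 and lane 2, the difference was −14.5 and −23.8 points for urt1 minus WT, −8.23 and −19.0 for urt1 xrn4 minus WT, −24.2 and −29.1 for urt1 xrn4 minus xrn4, and 6.22 and 4.83 for urt1 xrn4 minus urt1. For xrn4 minus WT it was 16.0 points in lane 1 (3.25 to 27.5) and 10.1 in lane 2, where the interval of −3.03 to 22.4 includes 0. Lanes hold the same libraries and are not replicates. Reads often repeated the same end (equal gene, A tract and added bases): distinct ends were 38.3% of reads in urt1, 55.6% in xrn4, 48.1% in urt1 xrn4 and 70.8% in WT. Counting each distinct end once, the uridylated share was 10.1% in urt1 (7.62 to 12.9), 31.5% in xrn4 (23.7 to 40.3), 13.6% in urt1 xrn4 (10.2 to 17.7) and 25.2% in WT (17.7 to 33.99). The order of the 4 libraries stayed. The xrn4 and WT intervals overlap in both counts, and the urt1 xrn4 and urt1 intervals overlap only when distinct ends are counted once.

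**Figure D1:**
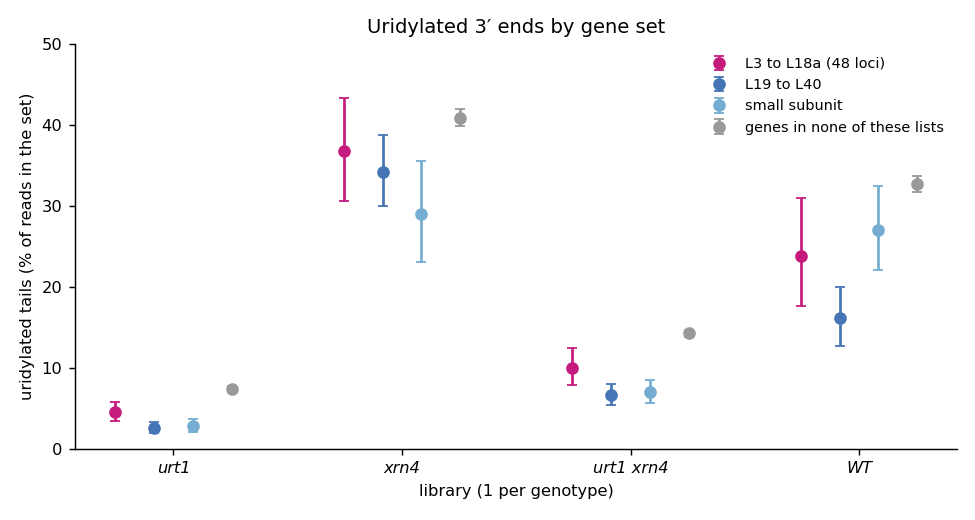
Percent of tails that were uridylated in each library (x axis: urt1, xrn4, urt1 xrn4, WT) for the L3 to L18a loci and for 3 other gene sets; points are pooled shares and lines are exact 95% intervals. The L3 to L18a loci stood at 4.51% in urt1, 36.8% in xrn4, 10.03% in urt1 xrn4 and 23.8% in WT, and below the genes outside the ribosomal lists in each library.

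Compared with the genes in none of the ribosomal lists, the L3 to L18a tails had a lower uridylated share of reads in each library, with an interval that excluded 0 in 3 of the 4, but with distinct ends counted once 0 of the 4 intervals excluded 0. The other genes stood at 7.44% in urt1, 40.9% in xrn4, 14.3% in urt1 xrn4 and 32.7% in WT. The L3 to L18a share minus theirs was −2.93 points in urt1 (−3.94 to −1.68), −4.24 in urt1 xrn4 (−6.28 to −1.78) and −8.88 in WT (−14.8 to −1.83). In xrn4 it was −4.14 points with an interval of −10.1 to 2.29, which includes 0. With distinct ends counted once it was −0.653 points in urt1 (−2.98 to 2.24), 0.204 points in xrn4 (−7.26 to 8.71), −3.72 points in urt1 xrn4 (−7.02 to 0.357) and −3.65 in WT (−10.7 to 4.91). The later large subunit families, L19 to L40, were lower still, with 2.57% in urt1, 34.2% in xrn4, 6.65% in urt1 xrn4 and 16.1% in WT. The L3 to L18a share exceeded that of L19 to L40 by 1.94 points in urt1 (0.732 to 3.28), 2.50 in xrn4 (−4.86 to 10.1), 3.37 in urt1 xrn4 (0.945 to 6.06) and 7.71 in WT (0.732 to 15.4). These intervals treat reads as independent although reads of a locus share their source.

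Beyond how often U was added, the number of U per tail differed between libraries. Among uridylated L3 to L18a tails, exactly 1 U was found in 58 of 62 in urt1 (93.5%), 26 of 86 in xrn4 (30.2%), 47 of 72 in urt1 xrn4 (65.3%) and 37 of 40 in WT (92.5%, 79.6 to 98.4). Exactly 2 U were found in 1 tail in urt1, 35 in xrn4 (40.7%), 20 in urt1 xrn4 (27.8%) and 1 in WT. Tails with 3 or more U numbered 3 in urt1, 25 in xrn4 (29.1%), 5 in urt1 xrn4 (6.94%) and 2 in WT. The 1-U share was lower in xrn4 than in WT (difference −62.3 points, −72.3 to −46.1), 35.05 points higher in urt1 xrn4 than in xrn4 (19.5 to 48.3) and lower in urt1 xrn4 than in urt1 (difference −28.3 points, −40.4 to −14.8). For urt1 minus WT the difference was 1.05 points with an interval of −9.20 to 14.02. With distinct ends counted once, the 1-U share was 46.3% in xrn4 (30.7 to 62.6) and 59.6% in urt1 xrn4 (44.3 to 73.6). These intervals overlap, so the gap between xrn4 and urt1 xrn4 depends on how repeated reads are counted. Counted the same way, the share was 92.5% in urt1 (81.8 to 97.9) and 93.3% in WT (77.9 to 99.2). The mean number of U per uridylated tail was 1.13 in urt1, 2.12 in xrn4, 1.49 in urt1 xrn4 and 1.13 in WT.

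Uridylated tails with a single U were more frequent in these mRNAs than in genes outside the ribosomal lists in urt1, urt1 xrn4 and WT. In WT, 92.5% of uridylated L3 to L18a tails had 1 U, against 30.7% of uridylated tails of the other genes, of which 47.3% had 2 U; the 1-U difference was 61.8 points (49.3 to 66.9). Counting each distinct end once, it was 28 of 30 against 37.3%, a difference of 56.1 points (41.2 to 61.4). L3 to L18a minus the small subunit genes, which had 37.04% in WT, was 55.5 points (38.99 to 66.3). L19 to L40 had 86.4%, a difference of 6.14 points with an interval of −7.74 to 17.5. In the mutants the 1-U share of L3 to L18a minus that of the other genes was 25.2 points in urt1 (16.1 to 29.5), 6.25 in xrn4 (−2.55 to 16.7) and 14.1 in urt1 xrn4 (2.45 to 24.2); with distinct ends counted once it was 21.3 points in urt1 (10.9 to 26.4), 13.5 in xrn4 (−1.02 to 28.5) and 8.98 in urt1 xrn4 (−5.41 to 21.95). Beside the other ribosomal genes, L3 to L18a minus L19 to L40 was 9.42 points in urt1 (−1.99 to 21.04), −4.95 in xrn4 (−16.5 to 7.53) and −2.76 in urt1 xrn4 (−17.04 to 11.2). L3 to L18a minus the small subunit was 14.7 points in urt1 (2.04 to 28.2), 12.8 in xrn4 (−1.37 to 25.5) and −11.99 in urt1 xrn4 (−25.7 to 1.98). The WT values rest on 40 tails, of which AT2G34480 and AT5G27850 gave 6 each.

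**Figure D2:**
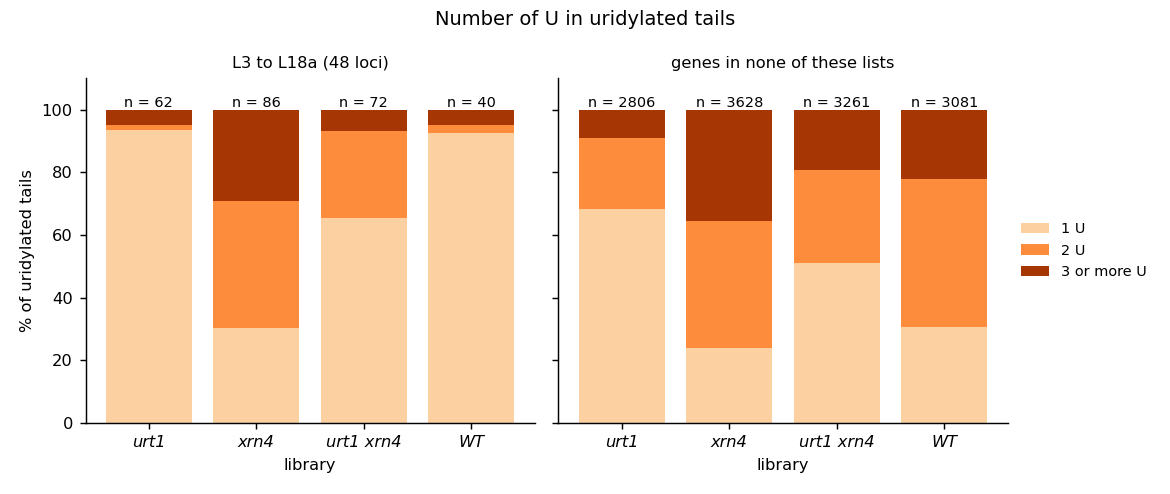
Number of U per uridylated tail (1, 2, or 3 or more) as a percent of uridylated tails in each library, for the L3 to L18a loci and for genes outside the ribosomal lists; n above each bar is the number of uridylated tails. In WT 92.5% of the L3 to L18a tails had 1 U, against 30.7% in the other genes, and in xrn4 30.2% did.

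The extensions were short strings of U or of U with A. In WT, the extension T was read 28 times over 11 loci, AT 9 times, TTT 2 times and TAAT once. In xrn4, TT led with 35 reads in 5 loci, followed by AT with 12, T with 10, TTTAAT with 10 in 1 locus, TTT with 7 and ATTT with 5. In urt1, T had 36 reads in 16 loci, AT 14 and AAT 8. In urt1 xrn4, T had 30 reads in 15 loci, TT 20 in 12 loci and AT 16. Strings with both bases made up 40.3% of uridylated tails in urt1, 39.5% in xrn4, 25% in urt1 xrn4 and 25% in WT. Nothing states whether mixed strings run 5′ to 3′, so they are used for composition alone. The xrn4 extensions were concentrated, with 3 loci giving 44.2% of uridylated reads and AT2G34480 alone 21 of 86.

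Extensions of G were about as frequent as U in urt1 and rarer in the other 3 libraries, and C extensions were rare. G extensions were 5.09% of tails in urt1 (70 reads), 5.98% in xrn4 (14), 5.71% in urt1 xrn4 (41) and 5.36% in WT (9). C extensions were 14 reads in urt1, 3 in xrn4, 8 in urt1 xrn4 and 1 in WT. The G share stayed within 1 percentage point over the 4 libraries while the U share moved.

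Mean A tracts were slightly shorter in the mutants than in WT, by an amount that depended on how repeated reads were counted. The mean A tract was 15.3 nt in urt1 (SD 5.44, n = 1376 tails), 15.4 in xrn4 (SD 4.99, n = 234), 14.9 in urt1 xrn4 (SD 5.50, n = 718) and 16.5 in WT (SD 5.57, n = 168). The difference was −1.17 ± 0.454 nt for urt1 minus WT (standard error over tails), −1.07 ± 0.540 for xrn4 minus WT, −1.63 ± 0.477 for urt1 xrn4 minus WT, −0.568 ± 0.385 for urt1 xrn4 minus xrn4 and −0.467 ± 0.252 for urt1 xrn4 minus urt1. The urt1 and urt1 xrn4 differences from WT exceed 2 standard errors, and the other 3 do not. Standard errors here and for single loci below treat tails of 1 library as independent, so repeated ends can make them too small. They are no replicate check. With identical reads counted once the differences from WT were smaller, at −0.411 nt for urt1, −0.360 for xrn4 and −0.775 for urt1 xrn4. Among unextended tails alone xrn4 minus WT was −0.227 nt. Without SAC52 the urt1 xrn4 minus xrn4 value was 0.33 nt. Among loci with at least 10 tails in both libraries, the mean tract was shorter in urt1 than in WT for 5 of 5, against 68.5% of all such genes, and shorter in urt1 xrn4 than in WT for 5 of 5, against 72.8%. It was shorter in xrn4 than in WT for 1 of 2 (78.8%), in urt1 xrn4 than in xrn4 for 4 of 7 (52.6%) and in urt1 xrn4 than in urt1 for 13 of 21 (57.6%).

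**Figure D3:**
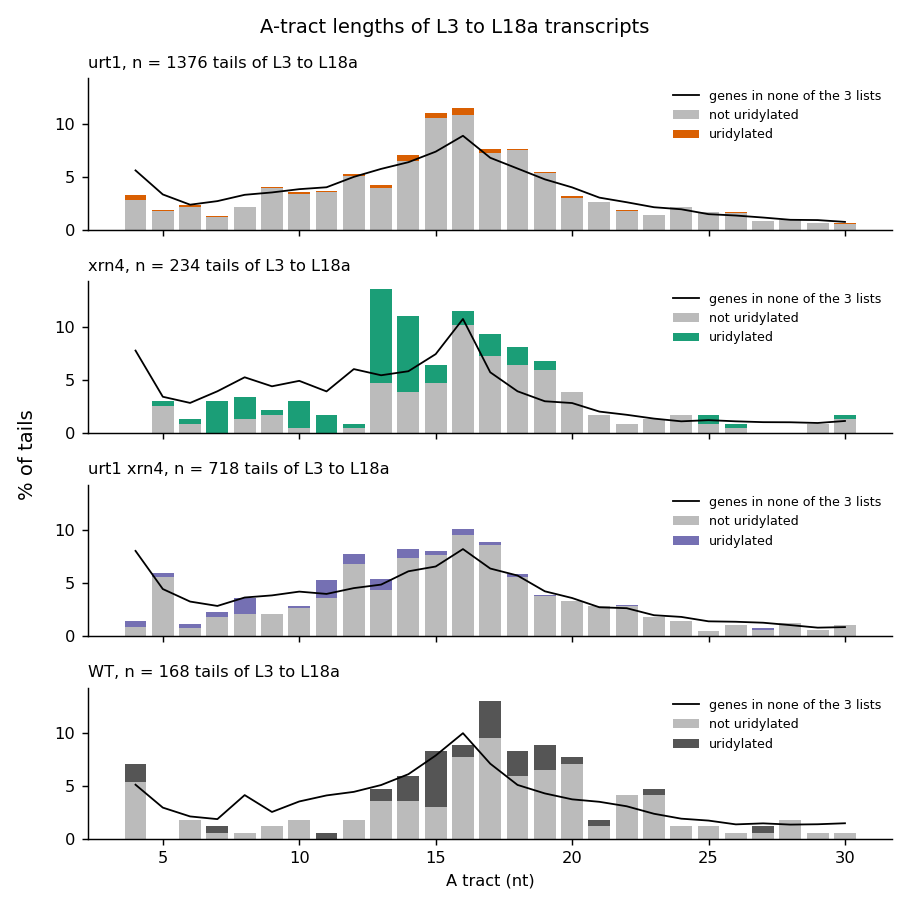
Distribution of A tract length in nucleotides for the L3 to L18a tails in each library, as percent of tails, with uridylated tails marked. The means were 15.3 nt in urt1, 15.4 in xrn4, 14.9 in urt1 xrn4 and 16.5 in WT. In xrn4 13 A was the most frequent length, with 32 tails, of which 21 were uridylated. Of these 21, 8 were the same end of AT1G43170 and 6 the same end of AT4G17390. The line is the distribution in genes outside the ribosomal lists.

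Uridylated tails had a shorter mean A tract than unextended tails in each library, but in WT the difference was small beside the spread. Uridylated tails averaged 13.8 nt of A in urt1, 13.3 in xrn4, 11.4 in urt1 xrn4 and 15.5 in WT. Unextended tails averaged 15.6 nt in urt1, 16.6 in xrn4, 15.5 in urt1 xrn4 and 16.8 in WT. In WT the SD was 4.64 for uridylated tails (n = 40) and 5.73 for unextended tails (n = 118). The difference was not tested. Tracts of 4 to 9 A were 15.04% of tails in urt1, 12.8% in xrn4, 16.4% in urt1 xrn4 and 11.9% in WT. In the other genes they were 20.9% in urt1, 27.6% in xrn4, 26.03% in urt1 xrn4 and 18.8% in WT. The uridylated share among tracts of 4 to 9 A was 5.80% in urt1, 50% in xrn4 (15 of 30), 20.3% in urt1 xrn4 and 20% in WT (4 of 20). Among tracts of 10 to 25 A it was 4.25% in urt1, 35.2% in xrn4, 8.27% in urt1 xrn4 and 25% in WT. The WT share was thus not higher among the shorter tracts. In xrn4, 21 of 32 tails of 13 A and 17 of 26 tails of 14 A were uridylated, but many of these were repeats of a few ends. Of the 21, AT1G43170 with TTTAAT gave 8 and AT4G17390 with TT gave 6. Of the 17, AT2G34480 with TT gave 5 and AT5G39740 with TTT gave 5. The L3 to L18a mean tract exceeded that of the other genes by 0.537 ± 0.150 nt in urt1 and 1.75 ± 0.332 in xrn4. The excess was 0.664 ± 0.210 in urt1 xrn4 and 1.14 ± 0.435 in WT. L3 to L18a minus L19 to L40 was −0.931 ± 0.180 nt in urt1 and 0.844 ± 0.420 in xrn4. It was −0.451 ± 0.253 in urt1 xrn4 and −0.561 ± 0.507 in WT. Minus the small subunit it was −0.668 ± 0.194 in urt1 and 0.206 ± 0.542 in xrn4. The values in urt1 xrn4 and WT were −0.731 ± 0.259 and −0.559 ± 0.529.

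The loci took a larger share of the table in the mutants than in WT, and so did L19 to L40. CPM, the reads of a locus scaled to 1000000 reads of its library, compares 3′ ends with tails of up to 30 A and does not measure mRNA level. In whole seedlings fewer cells of a type and less RNA per cell cannot be told apart. Each read is 1 3′ end, so no gene length enters. The 48 loci together were 31712 CPM in urt1, 23885 in xrn4, 27300.4 in urt1 xrn4 and 16304 in WT. The ratio was 1.94 for urt1 over WT (1.66 to 2.30), 1.46 for xrn4 over WT (1.20 to 1.797), 1.67 for urt1 xrn4 over WT (1.41 to 1.99), 1.14 for urt1 xrn4 over xrn4 (0.985 to 1.33) and 0.861 for urt1 xrn4 over urt1 (0.786 to 0.943). Counting identical reads once, the log2 ratio was 0.52 for urt1 over WT, against 0.96 with all reads, and 0.03 for urt1 xrn4 over urt1, against −0.22. The share of reads thus depends on how repeated reads are counted. The rise was not confined to these families. With all reads counted, the urt1 over WT ratio was 1.42 for L19 to L40 and 1.46 for the small subunit genes. For the double mutant over WT the ratios of these sets were 1.39 and 1.65. For xrn4 over WT the L19 to L40 ratio was 1.21, while the small subunit went the other way, at 0.761.

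Single loci were compared where the 2 libraries together held at least 20 reads. A locus was called where its log2 ratio reached 1 in size and the 95% interval excluded 0. For urt1 over WT, 8 of 22 loci tested were called higher and 1 lower, against 28.2% of all 440 genes called in either direction (20% higher, 8.18% lower). The median log2 ratio was 0.99, against 0.31 over all genes. For xrn4 over WT it was 2 higher and 1 lower of 5, against 29.7% of all genes, and for urt1 xrn4 over WT 7 higher and 1 lower of 17, against 37.1%. For urt1 xrn4 over xrn4 it was 6 higher and 3 lower of 19, against 41.9%, and for urt1 xrn4 over urt1 2 higher and 4 lower of 27, against 22.4%. For urt1 xrn4 over urt1 the called share equals the background to within 1 percentage point. Counting identical reads once gave 3 calls of 8 tested for urt1 over WT, 2 of them among the calls with all reads, 1 of 3 for xrn4 over WT, 1 of 5 for urt1 xrn4 over WT, 0 of 5 for urt1 xrn4 over xrn4 and 0 of 18 for urt1 xrn4 over urt1. Other scalings moved the split of calls: for urt1 over WT it was 13 higher and 0 lower with TMM and 11 and 0 with median of ratios, for urt1 xrn4 over WT 9 and 0 with TMM, and for urt1 xrn4 over xrn4 7 and 2 with median of ratios. The 3 comparisons with WT share the WT library, so their calls are not independent. Loci tested had to reach their 20 reads, often through the deeper library.

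**Figure D4:**
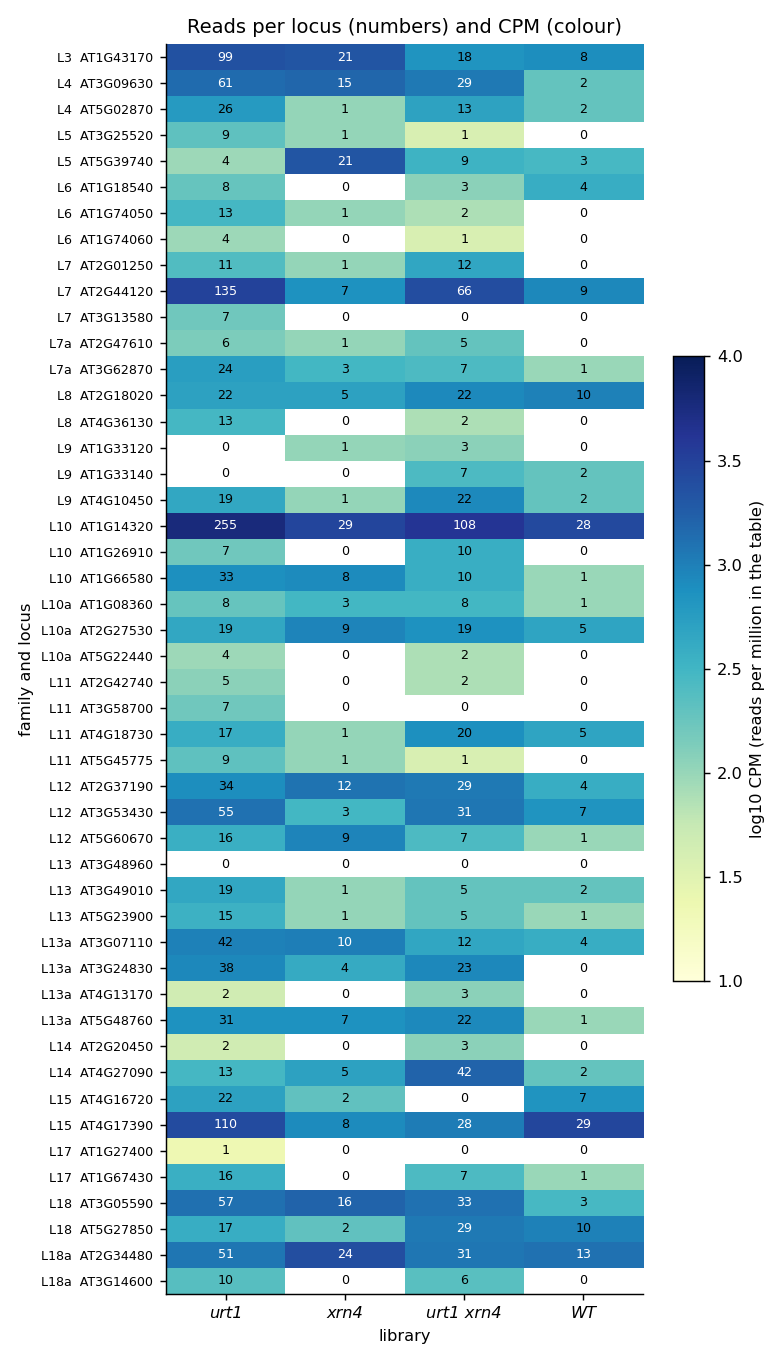
CPM (colour, log10 scale) for the L3 to L18a loci (rows) in urt1, xrn4, urt1 xrn4 and WT (columns, left to right), with the read counts behind each value written in the cells. SAC52 leads in urt1 with 255 reads and has 28 in WT, and AT4G17390 has 29 in WT, the highest there.

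By role, the first group lies at or near the catalytic core. RP1 (AT1G43170), an L3 gene whose protein reaches the peptidyl transferase centre, gave 2282 CPM in urt1 (99 reads), 2144 in xrn4 (21 reads), 684 in urt1 xrn4 (18 reads) and 776 in WT (8 reads). With all reads counted, it was higher in urt1 and in xrn4 than in the other 2 libraries. Distinct ends of RP1 numbered 29 in urt1, 8 in xrn4, 11 in urt1 xrn4 and 5 in WT, so repeated reads weigh on these values. The log2 ratio was 1.47 for urt1 over WT (0.52 to 2.81), 1.41 for xrn4 over WT (0.23 to 2.85), −1.64 for urt1 xrn4 over xrn4 and −1.70 for urt1 xrn4 over urt1. Its uridylated reads numbered 6 of 99 in urt1, 10 of 21 in xrn4, 0 of 18 in urt1 xrn4 and 3 of 8 in WT. The 10 in xrn4 all bore TTTAAT, 8 of them on a 13 A tract, so they are few distinct ends.

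SAC52, an L10 gene, encodes a protein that joins the subunit late and sits beside the catalytic core. It gave 5877 CPM in urt1 (255 reads), 2960.1 in xrn4 (29 reads), 4106 in urt1 xrn4 (108 reads) and 2717 in WT (28 reads). Its log2 ratio for urt1 over WT was 1.09 (0.55 to 1.73). Distinct SAC52 ends numbered 48 of the 20456 in the urt1 library and 15 of the 6611 in WT, so that ratio was not seen in distinct ends. The number of possible distinct ends is limited, so this count cannot tell copies from separate molecules with equal ends. Uridylated reads were 16 of 255 in urt1 (6.27%), 5 of 29 in xrn4 (17.2%), 9 of 108 in urt1 xrn4 (8.33%) and 1 of 28 in WT (3.57%). None of the differences in this share had an interval that excluded 0: 2.70 points for urt1 minus WT (−11.6 to 7.41), 13.7 for xrn4 minus WT (−3.45 to 31.2), 4.76 for urt1 xrn4 minus WT (−9.90 to 12.1), −8.91 for urt1 xrn4 minus xrn4 (−26.6 to 2.86) and 2.06 for urt1 xrn4 minus urt1 (−3.29 to 9.21). Its mean A tract was 13.8 nt in urt1, 19.1 in xrn4, 12.7 in urt1 xrn4 and 16.1 in WT, a difference of −6.35 ± 1.14 nt for urt1 xrn4 minus xrn4 and 2.93 ± 1.33 for xrn4 minus WT. SAC52 was the L10 locus with the most reads in all 4 libraries. The other L10 gene called, SAG24 (AT1G66580), gave 33 reads in urt1, 8 in xrn4, 10 in urt1 xrn4 and 1 in WT, a log2 ratio of 2.41 for urt1 over WT (0.39 to 8.32). Its uridylated reads were 0 of 33 in urt1, 6 of 8 in xrn4 and 0 of 10 in urt1 xrn4.

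EMB2296 (AT2G18020), an L8 gene whose protein is also near the catalytic core, gave 507 CPM in urt1 (22 reads), 510.4 in xrn4 (5 reads), 837 in urt1 xrn4 (22 reads) and 970.5 in WT (10 reads). Uridylated tails were 1 of 22 in urt1, 2 of 5 in xrn4, 6 of 22 in urt1 xrn4 and 4 of 10 in WT. The urt1 xrn4 share was 22.7 points above urt1 (0.432 to 43.9), from 6 reads in 3 distinct ends. Its mean A tract was 9.95 nt in urt1 against 17.5 in WT, a difference of −7.55 ± 1.29 nt.

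The next group lines the exit tunnel. AT3G09630, an L4 gene, gave 1406 CPM in urt1 (61 reads), 1531 in xrn4 (15 reads), 1103 in urt1 xrn4 (29 reads) and 194 in WT (2 reads). Its log2 ratio was 2.55 for urt1 over WT (0.94 to 5.93) and 2.21 for urt1 xrn4 over WT. Uridylated tails were 0 of 61 in urt1, 6 of 15 in xrn4, 1 of 29 in urt1 xrn4 and 1 of 2 in WT, and the 6 in xrn4 were 1 kind of end, 7 A with 2 U. The L17 genes, whose protein also reaches the tunnel exit, had 0 reads in xrn4.

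L12 and L9 lie at the base of the P stalk, which recruits elongation factors. AT2G37190, an L12 gene, gave 784 CPM in urt1 (34 reads), 1225 in xrn4 (12 reads), 1103 in urt1 xrn4 (29 reads) and 388 in WT (4 reads), with 1 uridylated read in urt1, 2 in xrn4, 0 in urt1 xrn4 and 0 in WT. AT3G53430, also L12, gave 1268 CPM in urt1 (55 reads), 306 in xrn4 (3 reads), 1179 in urt1 xrn4 (31 reads) and 679 in WT (7 reads). Its log2 ratio was 1.75 for urt1 xrn4 over xrn4. AT4G10450, an L9 gene, had 19 reads in urt1, 1 in xrn4, 22 in urt1 xrn4 and 2 in WT, a log2 ratio of 1.82 for urt1 xrn4 over WT and 2.48 for urt1 xrn4 over xrn4. None of its reads was uridylated in any library.

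L5 and L11 bind the smallest ribosomal RNA as a separate particle before they join the subunit. RPL5B (AT5G39740) gave 92.2 CPM in urt1 (4 reads), 2144 in xrn4 (21 reads), 342 in urt1 xrn4 (9 reads) and 291 in WT (3 reads). Only in xrn4 did it reach 10 reads, and those 21 reads were 6 distinct ends, so repeated reads weigh on the value. Its log2 ratio was 2.69 for xrn4 over WT (1.14 to 5.27) and −2.60 for urt1 xrn4 over xrn4. RPL16B (AT4G18730), an L11 gene, had 17 reads in urt1, 1 in xrn4, 20 in urt1 xrn4 and 5 in WT, a log2 ratio of 2.35 for urt1 xrn4 over xrn4.

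The remaining families make up the body and the outer surface of the subunit. AT2G44120, an L7 gene, gave 3111 CPM in urt1 (135 reads), 715 in xrn4 (7 reads), 2509.5 in urt1 xrn4 (66 reads) and 873 in WT (9 reads). With all reads counted, it was higher in both libraries that lack URT1. The log2 ratio was 1.76 for urt1 over WT (0.87 to 2.99), 1.46 for urt1 xrn4 over WT and 1.72 for urt1 xrn4 over xrn4. Distinct ends of this locus numbered 25 of the 20456 in the urt1 library and 8 of the 6611 in WT. They numbered 23 of 13159 in urt1 xrn4 and 6 of 5751 in xrn4. The urt1 over WT ratio of this locus was thus not seen in distinct ends, whose possible number is limited for a locus with many reads. Its uridylated reads were 5 of 135 in urt1, 1 of 7 in xrn4, 3 of 66 in urt1 xrn4 and 3 of 9 in WT.

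AT4G17390, an L15 gene, had a lower read share than WT in both libraries that lack XRN4. It gave 2535 CPM in urt1 (110 reads), 817 in xrn4 (8 reads), 1065 in urt1 xrn4 (28 reads) and 2814 in WT (29 reads). For urt1 over WT its log2 ratio was −0.17 (−0.75 to 0.49), which was not called. Its log2 ratio was −1.72 for xrn4 over WT (−3.13 to −0.62), −1.40 for urt1 xrn4 over WT (not called with TMM scaling) and −1.23 for urt1 xrn4 over urt1. Uridylated tails were 5 of 110 in urt1, 7 of 8 in xrn4, 1 of 28 in urt1 xrn4 and 2 of 29 in WT; 6 of the 7 in xrn4 were the same end, 13 A with 2 U. The mean A tract was 15.6 nt in urt1, 16.9 in urt1 xrn4 and 20.5 in WT, with differences of −4.89 ± 0.766 nt for urt1 minus WT and −3.55 ± 0.904 for urt1 xrn4 minus WT. The L15 locus AT4G16720 had 22 reads in urt1, 2 in xrn4, 0 in urt1 xrn4 and 7 in WT, which puts urt1 xrn4 at least 4.44-fold lower than urt1, taking 3 counts as the floor for a count of 0.

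AT2G34480, the L18a gene whose ends are written out first, gave 1175 CPM in urt1 (51 reads), 2449.7 in xrn4 (24 reads), 1179 in urt1 xrn4 (31 reads) and 1262 in WT (13 reads). Its uridylated tails were 3 of 51 in urt1 (5.88%), 21 of 24 in xrn4 (87.5%), 4 of 31 in urt1 xrn4 (12.9%) and 6 of 13 in WT (46.2%). For urt1 xrn4 minus xrn4 the difference was −74.6 points (−85.9 to −50.2), and it was the 1 member called of 2 tested there, against 66% of all genes called (63.8% lower, 2.13% higher). Its 21 uridylated reads in xrn4 were 11 distinct ends, so they do not come from 1 repeated end. Its log2 read ratio for urt1 xrn4 over xrn4 was −1.06, not called with either other scaling.

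The L18 pair differed. RPL18 (AT3G05590) gave 1314 CPM in urt1 (57 reads), 1633 in xrn4 (16 reads), 1255 in urt1 xrn4 (33 reads) and 291 in WT (3 reads), a log2 ratio of 1.96 for urt1 over WT (0.55 to 4.49) and 1.91 for urt1 xrn4 over WT. Its uridylated reads were 3 of 57 in urt1, 6 in xrn4, 0 in urt1 xrn4 and 0 in WT. AT5G27850 gave 392 CPM in urt1 (17 reads), 204 in xrn4 (2 reads), 1103 in urt1 xrn4 (29 reads) and 970.5 in WT (10 reads). Its log2 read ratio was −1.34 for urt1 over WT (−2.52 to −0.02), the 1 locus lower there and no longer called with either other scaling, 2.14 for urt1 xrn4 over xrn4 and 1.48 for urt1 xrn4 over urt1. Its uridylated reads were 2 of 17 in urt1, 0 of 2 in xrn4, 10 of 29 in urt1 xrn4 and 6 of 10 in WT; in urt1 xrn4, 6 of the 10 were 8 A with AT and 3 were 7 A with U.

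Of the L13a genes, AT3G07110 gave 968 CPM in urt1 (42 reads), 1021 in xrn4 (10 reads), 456 in urt1 xrn4 (12 reads) and 388 in WT (4 reads), and its log2 ratio was −1.04 for urt1 xrn4 over urt1. AT3G24830 had 38 reads in urt1, 4 in xrn4, 23 in urt1 xrn4 and 0 in WT, at least 3.01-fold higher in urt1 and at least 3.00-fold higher in urt1 xrn4 than in WT. AT5G48760 had 31 reads in urt1, 7 in xrn4, 22 in urt1 xrn4 and 1 in WT, a log2 ratio of 2.32 for urt1 over WT (0.29 to 8.23). Its uridylated tails were 1 of 31 in urt1, 6 of 7 in xrn4, 7 of 22 in urt1 xrn4 and 0 of 1 in WT. The urt1 xrn4 share was 28.6 points above urt1 (8.42 to 49.6), which with EMB2296 makes 2 of 11 loci called higher, against 18.7% of all genes called higher and 19.7% in either direction. With identical reads counted once, 0 of the 2 loci that could still be tested were called. AT4G27090, an L14 gene, had 13 reads in urt1, 5 in xrn4, 42 in urt1 xrn4 and 2 in WT, a log2 ratio of 2.74 for urt1 xrn4 over WT, 1.53 for urt1 xrn4 over xrn4 and 2.38 for urt1 xrn4 over urt1.

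**Figure D5:**
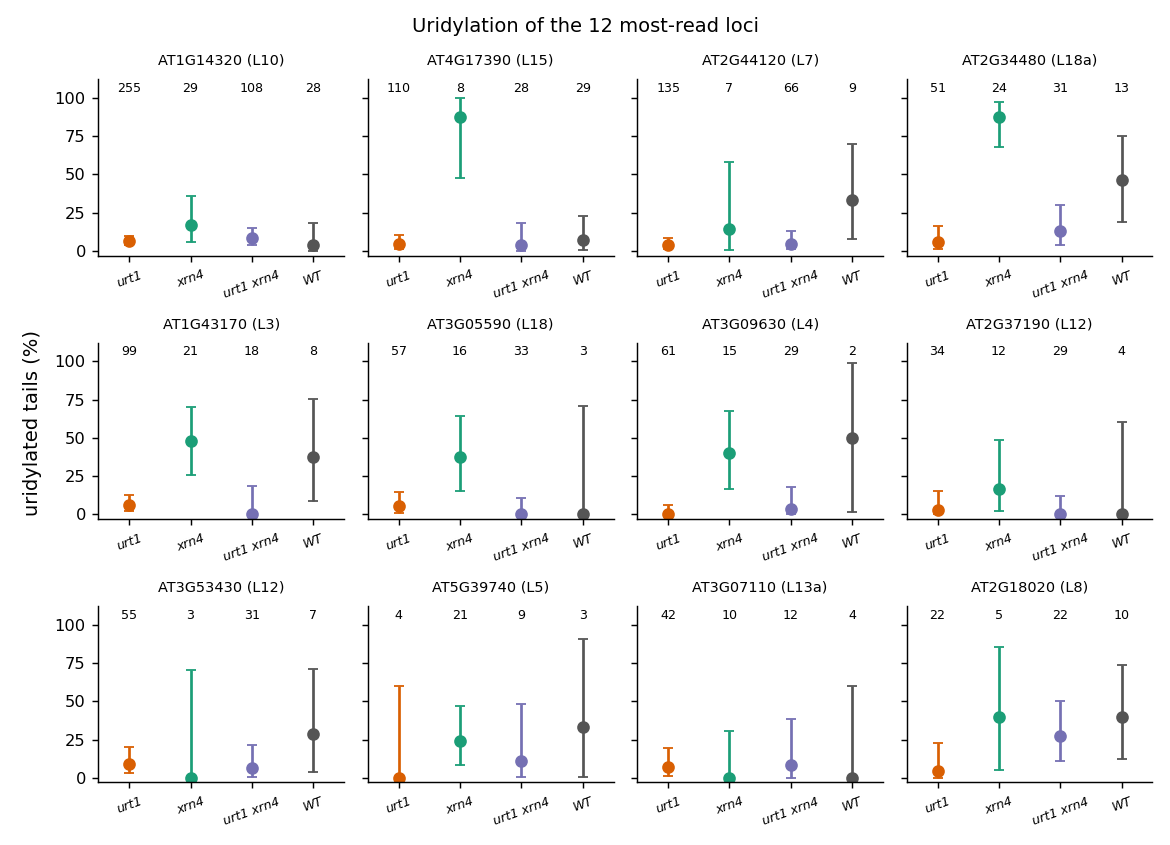
Uridylated percent of tails for the 12 loci with the highest mean CPM, 1 panel each, in urt1, xrn4, urt1 xrn4 and WT; points are shares, lines exact 95% intervals and the number above each is its tails. AT2G34480 stands at 5.88% in urt1, 87.5% in xrn4, 12.9% in urt1 xrn4 and 46.2% in WT, and WT intervals are wide where a locus has under 10 tails.

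In uridylation per locus, tests were scarce in the shallow libraries. With at least 20 tails in both libraries, 2 loci (SAC52 and AT4G17390) could be tested for urt1 over WT, 1 for xrn4 over WT and 2 for urt1 xrn4 over WT; 0 were called. Of all genes, 56.9% were called for urt1 over WT, 52.9% for xrn4 over WT and 49.1% for urt1 xrn4 over WT (1.89% higher, 47.2% lower). With at least 10 tails the locus medians were 3.08% in urt1 (30 loci), 30.7% in xrn4 (8 loci), 7.07% in urt1 xrn4 (22 loci) and 40% in WT (5 loci). In urt1, 14 of the 30 such loci had no uridylated read, while in WT each of the 5 had at least 1.

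The 28 members not named so far had few reads each: up to 26 in urt1 (AT5G02870, L4), 9 in xrn4, 19 in urt1 xrn4 and 5 in WT, the last 3 in PGY1 (AT2G27530), an L10a gene whose protein forms the L1 stalk. Together they gave 7 uridylated of 261 tails in urt1 (2.68%), 5 of 33 in xrn4 (15.2%), 18 of 134 in urt1 xrn4 (13.4%) and 5 of 20 in WT (25%), with the urt1 share again the lowest.

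By family, L10 held the most reads in urt1 (6799 CPM), xrn4 (3777 CPM) and urt1 xrn4 (4867 CPM), and L15 in WT (3494 CPM), ahead of L10 (2814 CPM). L15 stood at 3042 CPM in urt1, and lower in xrn4 (1021 CPM) and urt1 xrn4 (1065 CPM). Reads were concentrated, with the 3 loci with the most reads giving 36.3% of the group's reads in urt1, 31.6% in xrn4, 30.1% in urt1 xrn4 and 41.7% in WT. In the L5, L6, L12, L13a and L18 families the paralog with the most reads changed between libraries. Several of these changes rest on few reads or on near ties. The leading L6 locus in xrn4 had 1 read, and the L5 loci in urt1 had 9 and 4. In urt1 xrn4 the L13a loci AT3G24830 and AT5G48760 had 23 and 22 reads. Near-identical copies, such as AT1G33120 and AT1G33140 of L9, can share reads, so values of single paralogs in such families are uncertain.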

How the data were processed

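The authors deposited 1 table with a line per read. Per the file headers it gives genotype, A tract length and total tail length in nucleotides, the added nucleotides and a tail category; these lengths in nt are deposited values with no normalisation. Per the submitters' processing notes, the tools were TopHat2 2.0.9, Bowtie2, CASAVA 1.8.2 and bedtools 2.17.5, with build TAIR10; no source states the read filters. The genotype code UX was taken as urt1 xrn4, since the other codes match the other labels.

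Reads were counted per locus and library, and CPM was computed over all reads of a library. A locus called in share of reads had a log2 ratio (0.5 added) of at least 1 in size, an interval excluding 0 and 20 reads in both libraries together; a call in uridylation needed 20 tails in each. A count of 0 was set to a floor of 3 counts where a fold is given, without the counting error of the other count. Gene symbols came from RefSeq TAIR10.1 (8310 of 8346 loci matched, 48 of 48 here), and no coordinates or genome sequence were used because the builds differ. Named loci are the 12 with the highest mean CPM and each called locus. Members and lists were chosen with earlier results of these data known. Scripts, checked on simulated data, used scipy 1.17.1, pandas 2.3.3, numpy 2.4.6 and matplotlib 3.10.9 under Python 3.11.15. Alternatives covered read minima, pseudocount, scaling, repeated reads, U-only extensions and lanes; the lane split was added after the data were seen.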

Additional observations from a re-analysis of the deposited data

Results flagged for a closer look

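For SAC52 (AT1G14320) the uridylated share moved in opposite directions when URT1 was lost in WT and in xrn4 backgrounds. It was 2.70 points higher in urt1 than in WT (16 of 255 tails against 1 of 28) and −8.91 points in urt1 xrn4 relative to xrn4 (9 of 108 tails against 5 of 29). Both intervals include 0, and the difference between the backgrounds was not tested.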

How the results depend on the processing

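No paired analysis was possible because each genotype has 1 library. Of 122 recomputed values, 89 lay within the interval of the value first reported, or within 1.5 times a count, and 33 did not; 3 pooled values changed sign, and the cause was not tested. The pooled log2 read ratio was 1.78 with TMM scaling, 1.26 with median of ratios and 0.52 with identical reads once for urt1 over WT; 1.16 and 1.11 with the same scalings for urt1 xrn4 over WT; 0.57 and 0.67 for urt1 xrn4 over xrn4; and −0.43 and −0.45 for urt1 xrn4 over urt1, where identical reads once gave 0.025. TMM shifted all genes by 0.82, 0.06, 0.42, 0.38 and −0.21 and median of ratios by 0.30, −0.07, 0.37, 0.47 and −0.24 (urt1, xrn4 and urt1 xrn4 over WT, then urt1 xrn4 over xrn4 and over urt1). Higher and lower calls became 13 and 0 with TMM and 11 and 0 with median of ratios for urt1 over WT, and 2 and 6 under each for urt1 xrn4 over urt1. Read calls with a minimum of 50 reads numbered 5 for urt1 over WT, 0 for xrn4 over WT, 2 for urt1 xrn4 over WT and 2 for urt1 xrn4 over xrn4, and with identical reads once 3, 1, 1 and 0, and 0 for urt1 xrn4 over urt1; a minimum of 10 gave 7 for xrn4 over WT. Uridylation calls with a minimum of 10 tails were 3 for urt1, 1 for xrn4 and 1 for urt1 xrn4 over WT and 4 for urt1 xrn4 over xrn4, while for urt1 xrn4 over urt1 a minimum of 50 and identical reads once each gave 0. With those 2 settings no member could be tested in the other comparisons. Pooled uridylation for xrn4 minus WT was 4.37 points with extensions of U alone, 6.33 with identical reads once and 27.5 as the mean of 2 members' own shares, and for urt1 xrn4 minus xrn4 −17.9 with identical reads once and −14.7 with extensions of U alone. Mean A length as the mean of members' own means differed by −4.05 nt for urt1, 0.22 for xrn4 (2 members) and −3.33 for urt1 xrn4 relative to WT; without SAC52 it was 0.33 for urt1 xrn4 minus xrn4. Depth limits single loci most in WT and xrn4.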
